A study of Mus musculus with 5 samples.

Results

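Homeostatic microglia with low MHC class II were taken from cells of the brain of DM-hTAU mice, a model of tauopathy that carries a double mutant human tau transgene. The cells were sorted as CD45high CD11bhigh and profiled by MARS-seq, a plate method in which every captured mRNA carries a unique molecular identifier (UMI), so that a count is a number of molecules. All 5 libraries carry the same labels: DM-hTAU, 9 months of age, brain, treated with the antibody aPDL1 against the checkpoint ligand PD-L1. No other genotype, age or treatment was analysed here, so all values below describe this condition, and no source used here says which mice gave which library. A cell was a member when its well held 1 cell with at least 500 UMIs and passed 3 limits. The summed level of P2ry12, Tmem119, Sparc, Olfml3, Selplg and Gpr34 had to reach 80 UMIs per 10000 (the microglia sum), that of Cd74, H2-Aa, H2-Ab1 and H2-Eb1 had to stay under 150 (the MHC class II sum), and Lpl, Spp1, Cst7, Ccl3 and Ccl4 together were allowed at most 2 UMIs (the activation genes). Of 825 kept cells, 173 met the rule and 652 did not. The paper used the CD45high CD11bhigh sort to enrich monocyte-derived macrophages. It describes the microglia clusters found in the sort as activated, and elsewhere as homeostatic or activated. Shares below are therefore shares of sorted cells and not of microglia or cells in the brain.

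Microglia are the resident macrophages of the brain parenchyma. They are maintained by signalling through the receptor Csf1r and by TGF-beta, and they sense purine nucleotides released by other cells through receptors such as P2ry12. In mouse models of neurodegeneration, part of them lower these genes and raise others, among them Apoe, Lpl, Spp1 and Cst7. Macrophages of the brain borders and monocytes recruited from the blood share the CD45 and CD11b surface markers of the sort, and many of the former carry MHC class II, which presents peptides to T cells.

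The members had 193393 UMIs in all, with a median of 889 UMIs per cell. Libraries 1 to 5 gave 21, 9, 55, 22 and 66 members of 68, 87, 285, 71 and 314 kept cells. The share of kept cells that were members was 30.9% in library 1 (95% exact Clopper-Pearson interval 20.2% to 43.3%), 10.3% in library 2 (4.84% to 18.7%), 19.3% in library 3 (14.9% to 24.4%), 31.0% in library 4 (20.5% to 43.1%) and 21.0% in library 5 (16.7% to 25.95%). The mean share was 22.5% ± 8.70 (SD, n = 5), and library 2 had the lowest. The intervals cover counting error only. The share also depends on the depth limit: it was 26.8% at 300 UMIs per cell and 19.4% at 1000. Wells of 1 cell under 500 UMIs, left out here, numbered 312, 293, 95, 309 and 66 in libraries 1 to 5. Pooled, their microglia sums were 109, 62.3, 47.6, 117 and 46.5 UMIs per 10000. Those of kept cells that were not members were 35.2, 52.6, 32.7, 46 and 30.7. The other 652 cells fell into 3 classes. In 586 the microglia sum was under 80, 46 passed it with an MHC class II sum of at least 150 (MHC-high cells), and 20 passed both limits with more than 2 UMIs of the activation genes (activated cells).

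**Figure D1:**
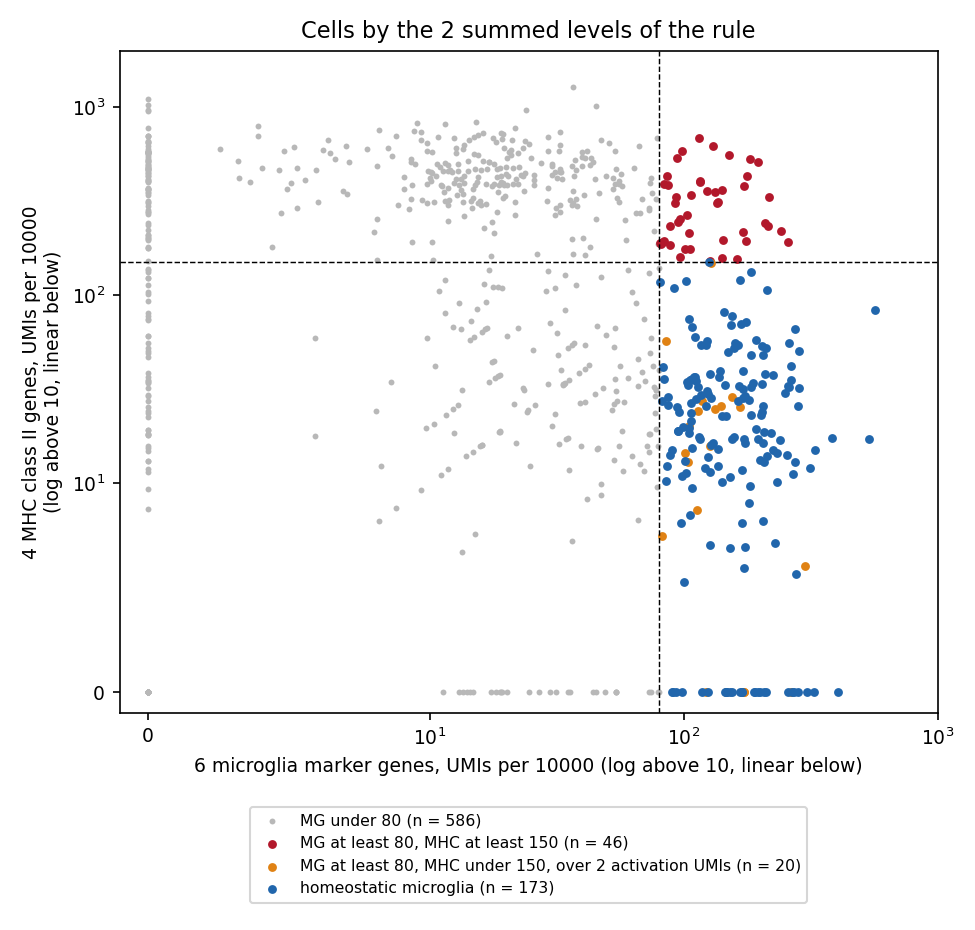
Each point is a kept cell, placed by its microglia sum (x axis) and its MHC class II sum (y axis), both in UMIs per 10000 on axes that are linear below 10 and logarithmic above. Dashed lines mark 80 and 150; the 173 homeostatic microglia fill the lower right, with the 20 activated cells among them and the 46 MHC-high cells above.

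The members were chosen by the measured levels of these 15 genes in each cell, which are given as a description only. In libraries 1 to 5, P2ry12, the ADP receptor that marks resting microglia, stood at 75.3, 41.0, 32.2, 55.6 and 30.7 UMIs per 10000 in members, and at 6.5 over the other cells. Tmem119, a membrane protein of microglia, stood at 18.2, 44.0, 22.6, 14.4 and 16.1, and at 3.80 in the other cells. The matrix protein gene Sparc ranged over the libraries from 33.9 to 44.6, Olfml3 from 18.5 to 42.5, the P-selectin ligand gene Selplg from 26.9 to 50.4 and the lysophospholipid receptor gene Gpr34 from 12.1 to 32.9. All 6 markers were thus present in the members of every library. The microglia sum had a median of 157 over members and 17.7 over the other cells, and the MHC class II sum medians of 19.3 and 275. Of the 173 members, 143 had no UMI of the activation genes, 25 had 1 and 5 had 2. The median was 0 in the other cells as well, with a maximum of 65. At the minimum depth the microglia limit equals 4 UMIs, and 22 members lay between 80 and 100. The 5 members nearest to the limit had sums from 80.9 to 85.2 and the 5 cells just under it from 78.9 to 79.8. At the MHC class II limit the nearest members reached 118 to 149.5 and the nearest MHC-high cells 153 to 177.

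Genes outside the rule were compared between the members and all 652 other cells with UMI counts summed per library and class, by edgeR, blocking on library and adjusting p by Benjamini-Hochberg. Below, a gene is called, higher or lower by this edgeR fit unless another method is named. Of 5406 genes tested, 16 (0.296%) were higher and 67 (1.24%) were lower in homeostatic microglia at an adjusted p under 0.05. At an unadjusted p under 0.05 they were 145 (2.68%) and 456 (8.44%). By DESeq2 they were 68 (4.16%) and 106 (6.49%) of the 1633 genes with an adjusted p. The share of calls that were higher was 19.3% in edgeR, 41.6% with median-ratio factors in place of TMM factors and 39.1% in DESeq2. The median log2 fold change over all genes tested was -0.22 and the scaling factors put fitted values on average 0.346 below the log2 ratio of the levels printed here, so a fold change is read against that median. The genes of a cell vary together and the classes were formed from these same cells. No p-value takes this into account. With the library as a block, the p-values measure how the difference between the classes varies over libraries, which may be technical.

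The higher genes included microglial receptors, purine handling genes and a protease inhibitor. Cst3, the gene of the secreted protease inhibitor cystatin C, gave 301, 273, 183, 303 and 198 UMIs per 10000 in members of libraries 1 to 5 and 97.7, 131, 70.9, 137 and 76 in the other cells. Members exceeded the other cells in all 5 libraries, and the ranges did not overlap (log2 fold change 0.98 ± 0.23 SE, edgeR adjusted p = 0.00487). Cx3cr1, the receptor for the neuronal chemokine fractalkine, gave 53.5, 71.3, 38, 39.1 and 31.3 UMIs per 10000 in members of libraries 1 to 5 and 11.8, 18.5, 15.8, 23 and 13.5 in the other cells. It was highest in library 2, the one with 9 members, and again without overlap (log2 fold change 1.13 ± 0.30 SE, edgeR adjusted p = 0.0194). Siglech, a sialic acid-binding lectin of microglia and plasmacytoid dendritic cells, gave 35.2, 25.8, 23.7, 17.2 and 18.1 UMIs per 10000 in members of libraries 1 to 5 and 8.86, 4.18, 7.19, 13 and 6.3 in the other cells. Its narrowest gap was in library 4 (log2 fold change 1.33 ± 0.34 SE, edgeR adjusted p = 0.0143).

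Of 7 tested genes of purine receptors and ectonucleotidases outside the rule, 3 were higher and none was lower (median 1.52). P2ry13, a receptor for ADP like P2ry12, gave 18.8, 25.8, 8.1, 13 and 9.87 UMIs per 10000 in members of libraries 1 to 5 and 6.71, 2.93, 4.28, 3.5 and 2.54 in the other cells. The ranges did not overlap (log2 fold change 1.52 ± 0.39 SE, edgeR adjusted p = 0.015). P2ry14, the receptor for UDP-glucose, gave 1.82, 6.07, 5.72, 8.24 and 0.713 UMIs per 10000 in members of libraries 1 to 5 and 0.269, 0.418, 1.2, 0.50 and 0.134 in the other cells. Members exceeded the other cells in every library, but the value of library 5 lay within the range of the other cells (log2 fold change 2.59 ± 0.67 SE, edgeR adjusted p = 0.015). Entpd1, the surface enzyme CD39 that breaks ATP down, gave 8.5, 16.7, 5.86, 4.8 and 4.87 UMIs per 10000 in members of libraries 1 to 5 and 3.22, 0.836, 1.76, 1.5 and 1.87 in the other cells, without overlap (log2 fold change 1.69 ± 0.48 SE, edgeR adjusted p = 0.0311). P2ry6, a UDP receptor, had a fold change of -0.10 ± 0.52 and the ATP channel gene P2rx7 of 0.03 ± 0.74, and neither was called. The genes P2ry12, P2ry13 and P2ry14 lie close together on the minus strand of chromosome 3 (mm10/GRCm38, GENCODE annotation), at chr3:59216272-59262871, chr3:59207892-59210882 and chr3:59113855-59153618. Med12l overlaps all 3 on the other strand, and counting by strand is not stated, so reads of the pair cannot be told apart. Entpd1 lies on the plus strand at chr19:40612366-40741602, where 3 other gene models overlap it on the same strand.

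The 250 bases before a transcript start of P2ry13, P2ry14 and Entpd1 were read from RefSeq promoter sequences (GRCm38.p6), since all 3 were called higher. They were searched on both strands for GAGGAA, a core motif of the myeloid factor PU.1. The windows shown overlap no annotated exon. They are written 5′ to 3′ on the gene's strand, with each match, GAGGAA or its reverse complement TTCCTC, in capitals.
P2ry13, chr3:59210883-59211132, minus strand: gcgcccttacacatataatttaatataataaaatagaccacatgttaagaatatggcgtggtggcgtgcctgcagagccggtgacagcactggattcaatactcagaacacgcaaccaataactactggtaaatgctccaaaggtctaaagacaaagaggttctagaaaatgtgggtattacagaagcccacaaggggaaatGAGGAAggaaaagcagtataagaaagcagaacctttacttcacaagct
P2ry14, chr3:59131329-59131578, minus strand: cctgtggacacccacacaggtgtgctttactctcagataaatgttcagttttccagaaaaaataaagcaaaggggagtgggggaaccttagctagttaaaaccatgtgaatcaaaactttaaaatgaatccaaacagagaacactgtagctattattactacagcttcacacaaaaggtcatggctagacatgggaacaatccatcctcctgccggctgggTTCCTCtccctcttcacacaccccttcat
Entpd1, chr19:40659520-40659769, plus strand: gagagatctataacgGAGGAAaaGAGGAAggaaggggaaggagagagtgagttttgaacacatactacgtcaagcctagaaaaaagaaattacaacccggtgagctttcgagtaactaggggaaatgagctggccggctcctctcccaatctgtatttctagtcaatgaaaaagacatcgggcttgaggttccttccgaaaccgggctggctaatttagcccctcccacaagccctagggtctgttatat
The P2ry13 and P2ry14 windows held 1 match each and the Entpd1 window 2. The other start of Entpd1 had none in its window. All 4 windows of P2ry14 had 1, but 2 of them overlap and share it, so that they hold 3 distinct matches. Counted by gene, a match was present in 5 of 13 higher genes with an entry (38.5%), 16 of 41 lower genes (39.0%), 28.5% of all genes tested and 0 of 3 microglia genes of the rule. Cx3cr1, Siglech, Slc2a5 and Adgrg1 had none. By window the shares were 8 of 19 (42.1%) for higher genes, 4 of them of P2ry14, 18 of 51 (35.3%) for lower genes and 24.7% of those of all genes tested. A second motif, TGANTCA (N is any base), was also searched and is not marked in the windows shown. By gene it was present in 3 of 13 higher genes (23.1%), 6 of 41 lower genes (14.6%) and 5.59% of all genes tested. It was present in 0 of 3 microglia genes of the rule. A match describes letters in these windows and shows no binding.

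**Figure D2:**
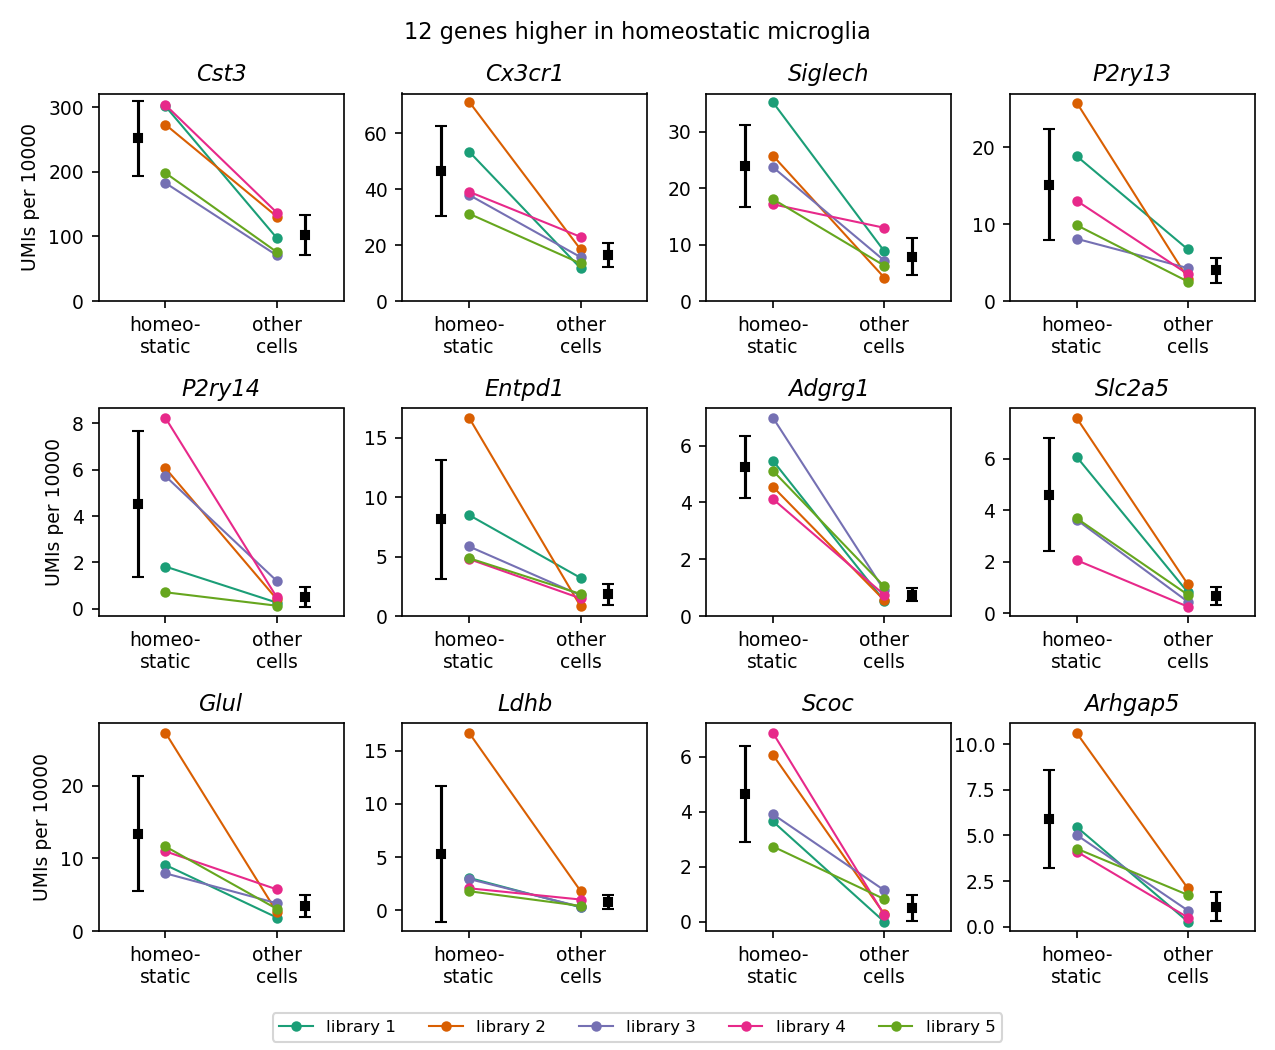
Levels in UMIs per 10000 (linear y axes) of 12 genes higher in homeostatic microglia, with the members at left and the other kept cells at right; a line joins the 2 classes of a library and black squares with bars are the mean ± SD over the 5 libraries. Every line falls from left to right, and library 2 is the highest among members for Cx3cr1, P2ry13, Entpd1, Slc2a5, Glul, Ldhb and Arhgap5.

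Of the other higher genes, Adgrg1, the adhesion receptor GPR56, gave 5.47, 4.55, 6.98, 4.12 and 5.11 UMIs per 10000 in members of libraries 1 to 5 and 0.537, 0.558, 0.91, 0.75 and 1.05 in the other cells, with the ranges apart in every library (log2 fold change 2.49 ± 0.57 SE, edgeR adjusted p = 0.00359). Slc2a5, the fructose transporter GLUT5, gave 6.07, 7.58, 3.63, 2.06 and 3.69 UMIs per 10000 in members of libraries 1 to 5 and 0.806, 1.11, 0.44, 0.25 and 0.712 in the other cells. Its ranges did not overlap (log2 fold change 2.47 ± 0.63 SE, edgeR adjusted p = 0.0116). Glul, glutamine synthetase, gave 9.11, 27.3, 7.96, 11 and 11.7 UMIs per 10000 in members of libraries 1 to 5 and 1.88, 2.65, 3.84, 5.75 and 3.07 in the other cells, with library 2 far above the others (log2 fold change 1.54 ± 0.41 SE, edgeR adjusted p = 0.0194). Ldhb, a subunit of lactate dehydrogenase, gave 3.04, 16.7, 2.93, 2.06 and 1.78 UMIs per 10000 in members of libraries 1 to 5 and 0.269, 1.81, 0.323, 1.0 and 0.401 in the other cells, and the same library stood apart (log2 fold change 2.28 ± 0.64 SE, edgeR adjusted p = 0.0311). Scoc, which encodes a short coiled-coil protein, gave 3.65, 6.07, 3.91, 6.86 and 2.73 UMIs per 10000 in members of libraries 1 to 5 and 0, 0.279, 1.14, 0.25 and 0.824 in the other cells (log2 fold change 2.57 ± 0.64 SE, edgeR adjusted p = 0.00911). Arhgap5, a GTPase-activating protein, had a log2 fold change of 2.06 ± 0.55, and 1810011H11Rik of 3.20 ± 0.89, both higher in all 5 libraries. Pde3b, a phosphodiesterase of cyclic nucleotides, was higher in 4 of 5 libraries (log2 fold change 2.12 ± 0.59 SE, edgeR adjusted p = 0.026). Rab3ip, an exchange factor for Rab GTPases, was higher in 3 of 5 and at 0 in the members of libraries 2 and 4 (log2 fold change 4.18 ± 1.15 SE, edgeR adjusted p = 0.0233). In all, 14 of the 16 were higher in every library and 12 did not overlap between the classes, as did 66 of all genes tested. By DESeq2, 15 of the 16 were also called. All 16 kept their direction and call when the other cells were limited to those with a microglia sum under 80. That limit uses the sum that chose the members and drops the cells nearest to them, so this is no independent result. Calls depended on which library was left out: 13 of the 16 were called without library 2 and 13 without library 4, but 4 without library 1 (Adgrg1, P2ry14, Scoc and Slc2a5), 3 without library 5 (Cst3 and Scoc among them) and none without library 3. Those tested kept fold changes above 0.

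Among 39 tested genes of a microglia identity list, 7 were higher (Adgrg1, Arhgap5, Cx3cr1, P2ry13, Siglech and Slc2a5 among them) and none was lower, 36 had a fold change above 0, and the median was 0.94 against -0.22 over all genes. The rule held the microglia sum of members high, and other identity genes can move with it, so this is no independent result. With median-ratio factors 17 of the 39 were called and by DESeq2 19, among them Csf1r, Mertk, Sall1, Fcrls, Bin1, Golm1, Crybb1, Nav3 and Vsir. Csf1r, the receptor that microglia need to survive, gave 40.7, 60.7, 55.3, 61.1 and 53.3 UMIs per 10000 in members of libraries 1 to 5 and 19.6, 19.9, 24.9, 27.5 and 20.1 in the other cells. The ranges did not overlap, yet the edgeR adjusted p was 0.0597, while that of DESeq2 was 2.68e-11. In the list of the Csf1r pathway edgeR called none of 11 genes (1 higher with an unadjusted p under 0.05), while DESeq2 and the median-ratio factors called Csf1r higher. Tyrobp, an adaptor protein of myeloid receptors, had a fold change of -0.12 ± 0.31 and Lyn of 0.46 ± 0.44. EdgeR called none of 11 TGF-beta genes and had none with an unadjusted p under 0.05, and DESeq2 called none, with Tgfbr1 at 0.49 ± 0.41 and Tgfbr2 at -0.02 ± 0.52. EdgeR called none of 15 transcription factors (1 higher with an unadjusted p under 0.05), whereas DESeq2 called Sall1 alone, higher, with Maf at -0.22 ± 0.48, Mef2c at 0.40 ± 0.55 and Mef2a at 0.73 ± 0.53.

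Of 22 lysosomal genes, 2 were higher (Cst3 among them) and none was lower, and 18 had a fold change above 0 (median 0.37). DESeq2 called 7 higher. The cathepsin genes Ctss and Ctsd had log2 fold changes of 0.46 ± 0.26 and 0.70 ± 0.29 with edgeR adjusted p of 0.533 and 0.248. By DESeq2 both were called (adjusted p = 3.14e-05 and 3.59e-05). EdgeR called none of 12 complement genes (1 higher and 3 lower with an unadjusted p under 0.05). C1qb and C1qc, chains of the first component, had fold changes of 0.52 ± 0.27 and 0.55 ± 0.28, and DESeq2 called both higher, with adjusted p of 0.00105 and 8.48e-05. EdgeR called none of 7 Fc receptor genes (2 higher with an unadjusted p under 0.05), DESeq2 called Fcrls and the median-ratio factors Fcrls and Fcgr3, with Fcrls at 0.83 ± 0.36 and Fcgr3 at 0.78 ± 0.35. Of 15 scavenger and phagocytic receptors edgeR called none (3 higher and 4 lower with an unadjusted p under 0.05), while DESeq2 called Mertk, Scarb2 and Trem2 higher and Axl lower. Trem2 stood at 0.89 ± 0.36 and Axl, a receptor for apoptotic cells, at -1.41 ± 0.47.

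The list of checkpoints and the PD-1 pathway, chosen because the labels name an antibody against PD-L1, had 7 of 12 genes with enough counts to test. EdgeR called none (2 higher with an unadjusted p under 0.05), while DESeq2 and the median-ratio factors called Vsir higher. Vsir, the checkpoint ligand VISTA, gave 22.5, 1.52, 16.1, 27.4 and 13.7 UMIs per 10000 in members of libraries 1 to 5 and 3.76, 5.86, 4.52, 10.2 and 4.67 in the other cells. In library 2 the members lay below the other cells, in the remaining 4 above (log2 fold change 1.21 ± 0.38 SE, edgeR adjusted p = 0.075). Sirpa, the receptor for the do-not-eat-me signal CD47, had a fold change of 0.50 ± 0.38, Lgals9 of 0.45 ± 0.59, Havcr2 of 0.07 ± 0.61 and Tgfb1 of -0.11 ± 0.74. Members and other cells come from the same libraries, all labelled aPDL1, so the effect of the antibody was not tested.

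**Figure D3:**
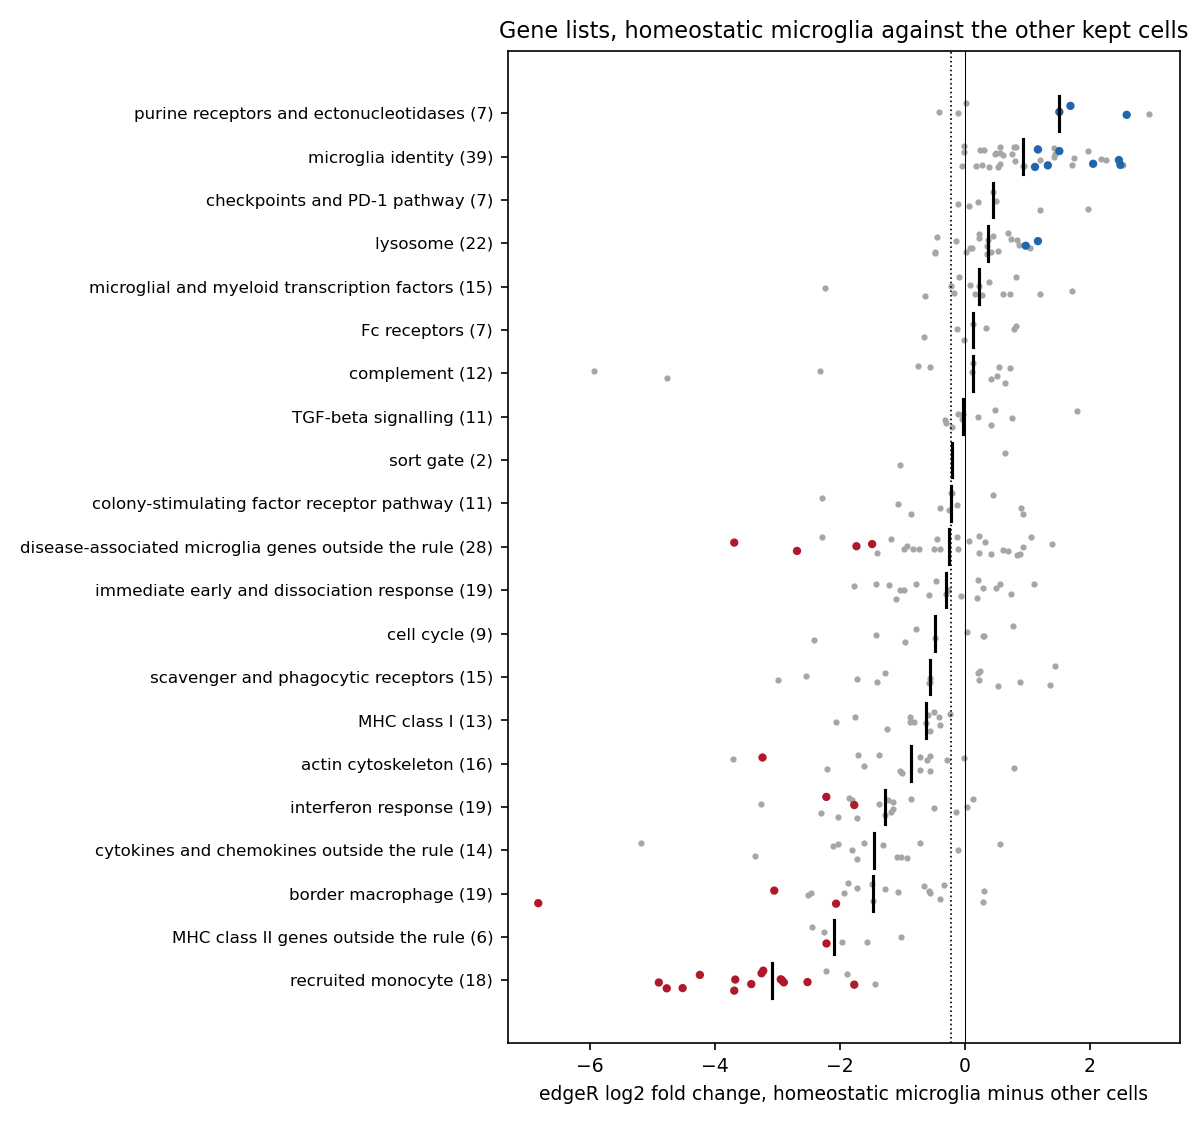
Each point is a tested gene of the named list (number tested in brackets), placed by its edgeR log2 fold change between homeostatic microglia and the other kept cells; blue and red mark genes higher and lower at an adjusted p under 0.05, grey the others, black bars list medians and the dotted line the median of all genes. Recruited monocyte genes all lie below 0 and 36 of 39 microglia identity genes above; the ribosomal and mitochondrial lists are not drawn.

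The lower genes included those of a recruited monocyte list, of which 14 of 18 tested were lower, none was higher and none had a fold change above 0 (median -3.08). Ccr2, the receptor that draws monocytes into tissue, gave 0.607, 3.03, 0.977, 0.686 and 0.832 UMIs per 10000 in members of libraries 1 to 5 and 8.86, 3.9, 6.31, 7.75 and 6.43 in the other cells. Library 2 had the highest member value, still under that of its other cells (log2 fold change -2.92 ± 0.55 SE, edgeR adjusted p = 0.000117). S100a4, a calcium-binding protein of motile cells, gave 0, 0, 0.14, 0 and 0.238 UMIs per 10000 in members of libraries 1 to 5 and 2.69, 6.27, 3.11, 2.5 and 3.18 in the other cells, so that members of 3 libraries had no UMI (log2 fold change -4.51 ± 0.86 SE, edgeR adjusted p = 0.000117). Vim, the intermediate filament gene vimentin, gave 3.04, 0, 0.838, 0 and 1.31 UMIs per 10000 in members of libraries 1 to 5 and 27.1, 7.95, 6.31, 4.0 and 8.01 in the other cells (log2 fold change -3.25 ± 0.51 SE, edgeR adjusted p = 4.95e-07). Beside S100a4, Plac8 (-4.24 ± 1.00), Plbd1 (-4.89 ± 1.00), Napsa (-4.76 ± 1.18), Lgals3 (-3.69 ± 0.83) and Chil3 (-3.67 ± 0.91) fell most among the list's called genes by log2 fold change. Each of these 5 had at most 0.686 UMIs per 10000 in the members of any library. Lsp1, Crip1, Ms4a4c, Ifitm3, S100a6 and S100a11 completed the 14. Of the genes outside the list, Lyz1 (-3.47 ± 0.93) and Clec12a (-3.42 ± 0.84), an inhibitory lectin receptor of myeloid cells, and Mndal, a nuclear interferon-inducible protein (-3.90 ± 1.11), were among the 10 largest falls seen in every library. Mir1668, a microRNA gene that lies within Adgre5 on the same strand, had no UMI in members against 74 in the other cells, at least 5.08-fold lower with 3 counts over all members as the floor. In all, 55 of the 67 were lower in every library and 41 did not overlap between the classes, as did 155 of all genes tested. Without library 3, 12 of the 67 were still called, without library 5 26 and without library 1 27.

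Apoe and Lyz2 were lower at much higher counts. Apoe, the lipid carrier that microglia raise in disease models, gave 61.4, 21.2, 37.7, 47.4 and 49 UMIs per 10000 in members of libraries 1 to 5 and 155, 72.3, 113, 118 and 110.2 in the other cells. All 5 member values lay below all values of the other cells (log2 fold change -1.73 ± 0.26 SE, edgeR adjusted p = 7.86e-08). Lyz2, lysozyme of macrophages and monocytes, gave 7.9, 12.1, 8.38, 15.8 and 15.9 UMIs per 10000 in members of libraries 1 to 5 and 75.5, 52.4, 49.7, 70.0 and 60.1 in the other cells, also without overlap (log2 fold change -2.68 ± 0.31 SE, edgeR adjusted p = 1.84e-14). They were among 4 of 28 disease-associated microglia genes outside the rule that were lower, with Cd52 (-1.48 ± 0.38) and Lgals3. None of the 28 was higher, and the list median was -0.26. DESeq2 called 4 higher (Ctsd, Serpine2, Timp2 and Trem2) and 5 lower, the same 4 and Axl. B2m (-0.39 ± 0.26) and Fth1 (-0.82 ± 0.30), the ferritin heavy chain, were not called. Of the 652 other cells, 586 were under the microglia limit, so these falls do not compare states of microglia. Against the activated cells edgeR called none of 21 such genes, and against the MHC-high cells Lyz2 alone of 22, lower in members.

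Of 19 border macrophage genes 3 were lower: the lectin genes Mgl2 (log2 fold change -3.04 ± 0.67 SE, edgeR adjusted p = 0.00189) and Clec10a, and Ms4a6c (log2 fold change -2.06 ± 0.51 SE, edgeR adjusted p = 0.00898). Clec10a had no UMI in members against 130 in the other cells, at least 8.92-fold lower when 3 counts over all members are taken as the floor. Mrc1, the mannose receptor of border macrophages, had a fold change of -1.28 ± 0.55 (edgeR adjusted p = 0.289). MHC class II genes outside the rule had 6 tested members, all with fold changes under 0 and a median of -2.09. Only H2-DMa, which helps to load peptides, passed the test, with 2.43, 1.52, 2.65, 0 and 2.97 UMIs per 10000 in members of libraries 1 to 5 and 17.2, 6.97, 8.77, 6.75 and 6.25 in the other cells (log2 fold change -2.22 ± 0.47 SE, edgeR adjusted p = 0.00141). Its partner gene H2-DMb1 (-1.55 ± 0.53) and the class II activator Ciita (-2.45 ± 1.10) did not. The rule held the class II sum low, and genes of this pathway move with it, so this is no independent result. EdgeR called none of 13 MHC class I genes (1 lower with an unadjusted p under 0.05), nor did DESeq2, with H2-D1 at -0.55 ± 0.35 and H2-K1 at -0.88 ± 0.41.

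**Figure D4:**
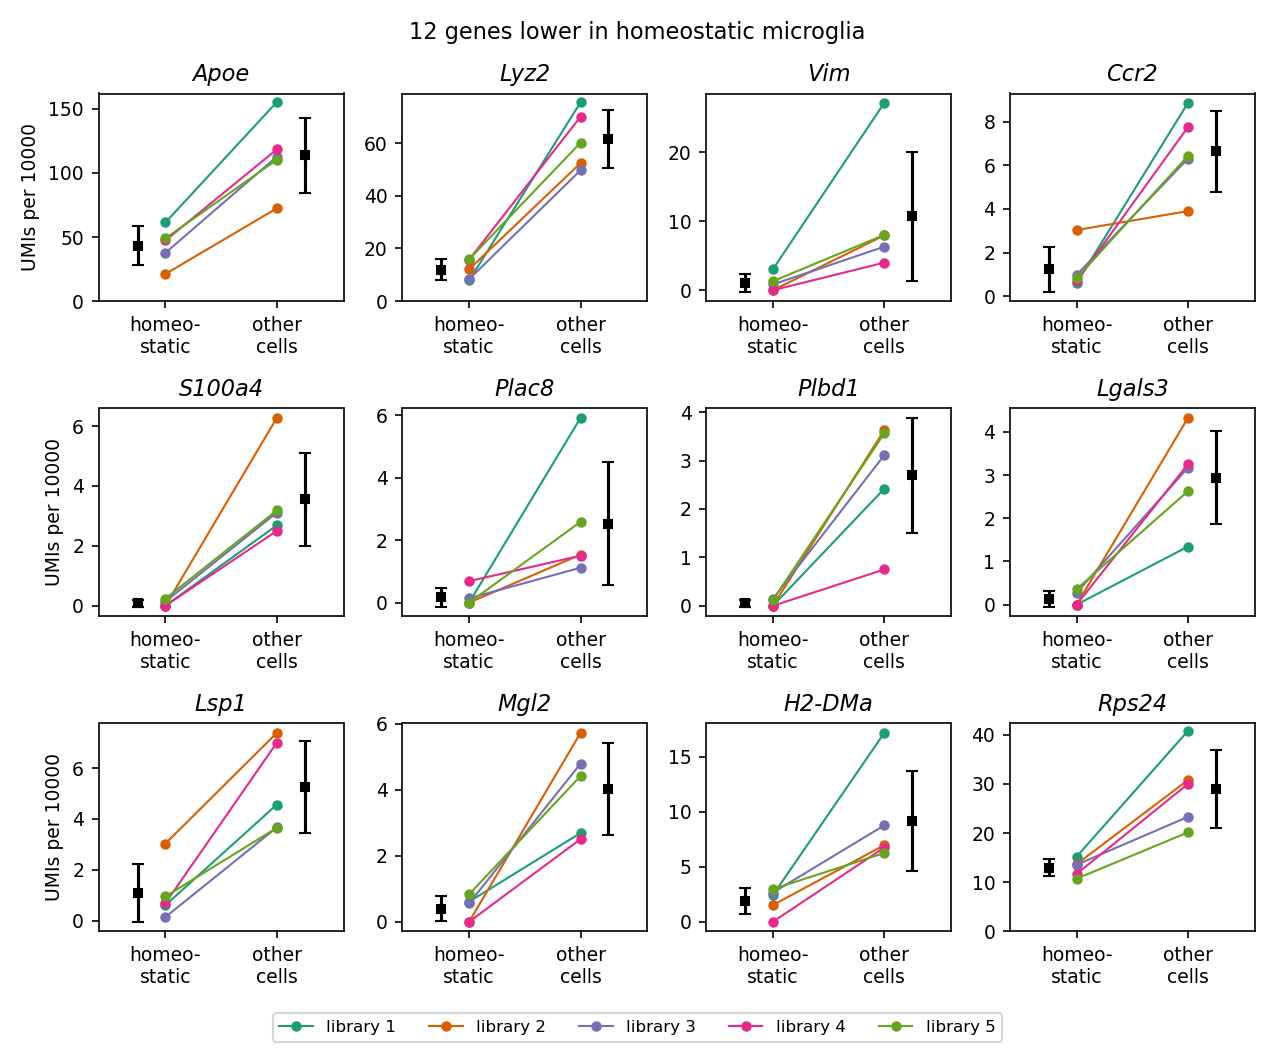
Levels in UMIs per 10000 (linear y axes) of 12 genes lower in homeostatic microglia, drawn as for the higher genes: members at left, other kept cells at right, lines joining the classes of a library, black squares the mean ± SD of 5 libraries. Every line rises from left to right; the rise of Ccr2 in library 2 is the smallest of that gene.

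Of 19 interferon response genes, 2 were lower in members (Ifi27l2a, log2 fold change -2.21 ± 0.54 SE, edgeR adjusted p = 0.00732, and Ifitm3, log2 fold change -1.76 ± 0.51 SE, edgeR adjusted p = 0.0383), none was higher and the median was -1.27. Bst2 (-1.27 ± 0.55) was not called. Of 14 cytokine and chemokine genes outside the rule neither edgeR nor DESeq2 called any (6 lower with an unadjusted p under 0.05 in edgeR, median -1.45), with Ccl12 at -1.08 ± 0.57, Ccl6 at -0.92 ± 0.46, Cxcl16 at -1.72 ± 0.69 and Ccl9 at 0.57 ± 0.48. Of 19 immediate early genes, which tissue dissociation can raise, edgeR called none (1 higher with an unadjusted p under 0.05), whereas DESeq2 called Rhob higher, with Fos at -0.30 ± 0.45, Jun at 0.75 ± 0.45, Zfp36 at -0.27 ± 0.49 and Rhob at 1.11 ± 0.47. Of 9 cell cycle genes neither edgeR nor DESeq2 called any, and none had an unadjusted p under 0.05 in edgeR. In the actin list edgeR called Vim alone of 16, and DESeq2 also Tmsb4x lower and Marcks higher. Actb, Tmsb4x and Cfl1 had fold changes of -0.59 ± 0.26, -0.72 ± 0.25 and -0.28 ± 0.41, and Marcks, a membrane-linked actin regulator, of 0.80 ± 0.33 (DESeq2 adjusted p = 0.000142). The 2 genes of the sort itself, Ptprc (CD45) and Itgam (CD11b), had fold changes of -1.04 ± 0.49 and 0.65 ± 0.41 (edgeR adjusted p = 0.386 and 0.624).

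Of 73 tested genes of cytoplasmic ribosomal proteins, 9 were lower (Rpl26, Rpl32, Rplp0, Rps14, Rps16, Rps19, Rps24 and Rpsa among them) and none was higher, and 72 had a fold change under 0 (median -1.10). DESeq2 called 17 lower. Rps24 gave 15.2, 13.7, 13.5, 11.7 and 10.7 UMIs per 10000 in members of libraries 1 to 5 and 40.8, 30.8, 23.3, 30.0 and 20.1 in the other cells, without overlap (log2 fold change -1.41 ± 0.32 SE, edgeR adjusted p = 0.00359). Ribosomal protein genes took a median of 3.08%, 3.05%, 3.41%, 2.69% and 2.54% of a member's UMIs in libraries 1 to 5 and 5.46%, 5.2%, 4.29%, 3.94% and 3.60% of another cell's. The difference of -1.54 percentage points was in the same direction in 5 of 5 libraries (exact sign-flip permutation test over libraries, two-sided p = 0.0625, the smallest that 5 pairs can give). Ribosomal pseudogenes such as Rps24-ps3 and Rpl38-ps2 and the small RNA genes Snord55 and Snord35b, which lie in introns of ribosomal genes, were lower too, but their counts cannot be told apart from those of the parent genes where sequence or position is shared. Of 18 mitochondrial genes, the ribosomal RNAs mt-Rnr1 (log2 fold change -0.84 ± 0.22 SE, edgeR adjusted p = 0.0195) and mt-Rnr2 (log2 fold change -0.73 ± 0.20 SE, edgeR adjusted p = 0.0194) were lower and none was higher. The mitochondrial share was 7.42% ± 0.689 in members and 9.07% ± 1.30 in the other cells (SD, n = 5), lower in 4 of 5 libraries (exact sign-flip permutation test, p = 0.125). The median UMIs per cell in libraries 1 to 5 were 589, 706, 1042, 609.5 and 1146 in members and 691, 769, 1214, 671 and 1299 in the other cells (lower in 5 of 5 libraries, exact sign-flip permutation test, p = 0.0625). At 500 thinned UMIs they had 281 ± 34.8 genes per cell against 281 ± 24.8 (SD, n = 5).

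Transcripts of other cell types were counted in the members with lists of markers. The 6 monocyte markers summed to 1.82, 3.03, 1.40, 4.80 and 1.90 UMIs per 10000 in members of libraries 1 to 5 and from 12.6 to 24.5 in the other cells. The 8 border macrophage markers ranged from 1.82 to 10.3 in members and from 4.46 to 18.6 in the other cells. The 8 dendritic cell markers ranged from 17.2 to 35.2 in members and from 9.34 to 18.5 in the other cells, and were lower in members in library 4 alone. Siglech, which microglia share, made up 21.8 of the pooled 22.6 UMIs per 10000 in members, and Flt3, Itgae and Ccr7 were at 0. Among the 9 T or NK cell markers Cd3e, Cd3d, Cd3g, Trac, Trbc1 and Trbc2 were at 0 and the rest gave 4 UMIs. The 6 B cell markers stood at 3.0 pooled and 2.49 in the other cells, with Cd79a, Ms4a1 and Ebf1 at 0. The 7 endothelial markers stood at 3.10 and 2.65, with Cldn5 at 0. The 7 astrocyte markers gave 25 UMIs in members (1.29 per 10000, against 0.341 in the other cells), with all but Slc1a3 at 0, the 6 oligodendrocyte markers 10 UMIs and the 6 neuron markers 3. Mast cell or basophil and erythrocyte markers had no UMI in members.

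Neutrophil transcripts differed between libraries. The 8 neutrophil markers summed to 6.07, 127, 4.61, 326 and 9.99 UMIs per 10000 in members of libraries 1 to 5 and to 4.30, 591, 27.1, 242 and 63.9 in the other cells, so that both classes were high in libraries 2 and 4. Among members, 13 wells reached 50 UMIs per 10000 of S100a8 and S100a9, with 4 in library 2, 8 in library 4 and 1 in library 5, and a well of library 4 alone held 165 UMIs of the pair. S100a8 (-1.71 ± 0.32), S100a9 (-1.83 ± 0.33), Ngp, Camp, Lcn2 and Ltf were called lower in members, although S100a8, S100a9 and Ngp were higher in members of 2 libraries. Without the 69 such wells among the other cells, 18 genes were higher and 73 lower, and the log2 fold changes of S100a8, S100a9, Ngp, Camp and Lcn2 turned to 1.13, 1.06, 1.15, 1.5 and 0.69, none of them called. With such wells left out of both classes, an alternative chosen after the data were seen, 5 genes were higher (Adgrg1, P2ry14, Rab3ip, Scoc and Slc2a5) and 52 lower. All 16 genes called higher at first stayed above 0 there.

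Cells of the class itself also differed from each other. For 506 genes with at least 50 UMIs in members, the variance over cells was divided by that expected from counting alone, given each cell's depth and the library's mean. The median ratio was 1.75 and 178 genes exceeded 2. The largest values were those of Gm42418 (21.4) and Gm26917 (12.2), rows that share sequence with ribosomal RNA, Apoe (13.3), mt-Rnr2 (12.9), S100a8 (11), S100a9 (10.9), mt-Rnr1 (9.16), Ptpn6 (8.13), Ngp (8.04) and Cst3 (5.28). Apoe had a UMI in 129 of 173 members, and the cell with the most, 62 UMIs, held 7.16% of the total. In contrast, 46.1% of the UMIs of Ptpn6, a phosphatase of blood cells, and 71.7% of those of Ngp, a neutrophil granule gene, came from 1 cell each. Cst3 was found in all 173 members, with no cell above 1.76% of its UMIs.

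The members were then compared with the 20 activated cells, the nearest class across the limit on Lpl, Spp1, Cst7, Ccl3 and Ccl4. Only libraries 3 and 5 had 5 or more of them (9 and 6), so the test rests on 2 libraries with 121 members. The activation limit is a raw count, so a deeper cell crosses it more easily. In libraries 3 and 5 the 9 and 6 activated cells held 15008 and 17652 UMIs. The 55 and 66 members held 71644 and 84122, so activated cells were deeper. The part of depth in this comparison was not tested. Of 935 genes tested by edgeR, 1 (0.107%) was higher in members and 1 (0.107%) was lower, 0.214% in all. Cd14, the co-receptor for bacterial lipopolysaccharide, stood at 2.51 and 3.68 UMIs per 10000 in members of libraries 3 and 5 and at 19.3 and 10.2 in activated cells (log2 fold change -2.25 ± 0.46 SE, adjusted p = 0.000911). Of its 47 UMIs in activated cells, 1 cell held 12. Entpd1 stood at 5.86 and 4.87 in members and had no UMI in the activated cells of these 2 libraries, at least 5.80-fold higher when 3 counts over both are taken as the floor (edgeR adjusted p = 0.00588). The test took genes with at least 30 UMIs over both classes, so Entpd1 entered it through its counts in members alone. Its call is therefore no independent result. Neither Cd14 nor Entpd1 passed in DESeq2, which called 0 genes. With an unadjusted p under 0.05 edgeR gave 16 (1.71%) higher and 21 (2.25%) lower.

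Pooled over libraries, Cx3cr1 stood at 37.6 (34.9 to 40.4) UMIs per 10000 in members and 39.2 (33.2 to 46) in activated cells, and Cst3 at 212 (205 to 218) and 208 (194 to 223), with exact 95% Poisson intervals in brackets. Neither edgeR nor DESeq2 called any of 34 microglia identity genes (2 higher with an unadjusted p under 0.05 in edgeR) or of 21 disease-associated genes outside the rule (7 lower). Of the latter, 4 had a fold change above 0, among 517 of all 935 genes. Apoe had a fold change of -0.80 ± 0.33, Ctsd of -0.73 ± 0.33 and Lyz2 of -0.84 ± 0.38, each with an adjusted p of 0.988. The immediate early gene Jun had a fold change of 1.55 ± 0.69 and Rhob of 0.97 ± 0.52, not called either. The depth limits these values, since the 20 activated cells gave 34 UMIs of Glul and 19 of P2ry13 in all.

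The MHC-high cells, which passed the microglia limit but carried class II genes, could be compared in libraries 2, 3, 4 and 5. Of 1265 genes tested by edgeR, 1 (0.0791%) was higher in members and 1 (0.0791%) was lower, 0.158% in all. Lyz2 stood at 12.1, 8.38, 15.8 and 15.9 UMIs per 10000 in members and at 27.7, 61.5, 37.3 and 52.1 in MHC-high cells, lower in members of all 4 libraries and without overlap (log2 fold change -1.79 ± 0.39 SE, adjusted p = 0.00640). DESeq2 also called 1 gene lower and none higher. Retreg1, a receptor for autophagy of the endoplasmic reticulum, stood at 7.58, 0.698, 13.7 and 2.38 in members and had no UMI in the MHC-high cells of these libraries, at least 6.61-fold higher with 3 counts over the 4 as the floor (edgeR adjusted p = 0.0388). Retreg1, too, passed the filter on total UMIs through its counts in members alone, so its call is no independent result. At an unadjusted p under 0.05 there were 26 (2.06%) higher and 21 (1.66%) lower. The Lyz2 call was lost without library 3 or library 5, and that of Retreg1 without any of the 4. Lyz2 was also not called with genes of at least 10 UMIs, with no filter, at 300 UMIs or with a microglia sum of at least 120. Retreg1 was not called with genes of at least 10 UMIs, with no filter, at 300 UMIs, by DESeq2 or on thinned UMIs.

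Other genes differed between members and MHC-high cells by amounts that edgeR did not call. Apoe stood at 44.8 (41.9 to 47.9) in members and 104 (96.9 to 112) in MHC-high cells over all libraries, with a fold change of -1.28 ± 0.37 (edgeR adjusted p = 0.141), and was called lower with median-ratio factors. Ifi27l2a, an interferon-induced gene, stood at 1.86 (1.3 to 2.58) and 7.7 (5.81 to 9.99) (-2.15 ± 0.63, edgeR adjusted p = 0.161). Arhgap5 had a fold change of 3.24 ± 0.90 (edgeR adjusted p = 0.13), with 4 UMIs in all MHC-high cells. Cst3 stood at 151 (142 to 160.5) in MHC-high cells, with a fold change of 0.68 ± 0.34. All 4 interferon response genes tested against these cells had a fold change under 0 (2 of them with an unadjusted p under 0.05), and 2 of 36 microglia identity genes were higher at that level. EdgeR and DESeq2 called none of either list. In cells under the microglia limit Cst3 stood at 69.8 (68 to 71.6) and Apoe at 113 (111 to 115).

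**Figure D5:**
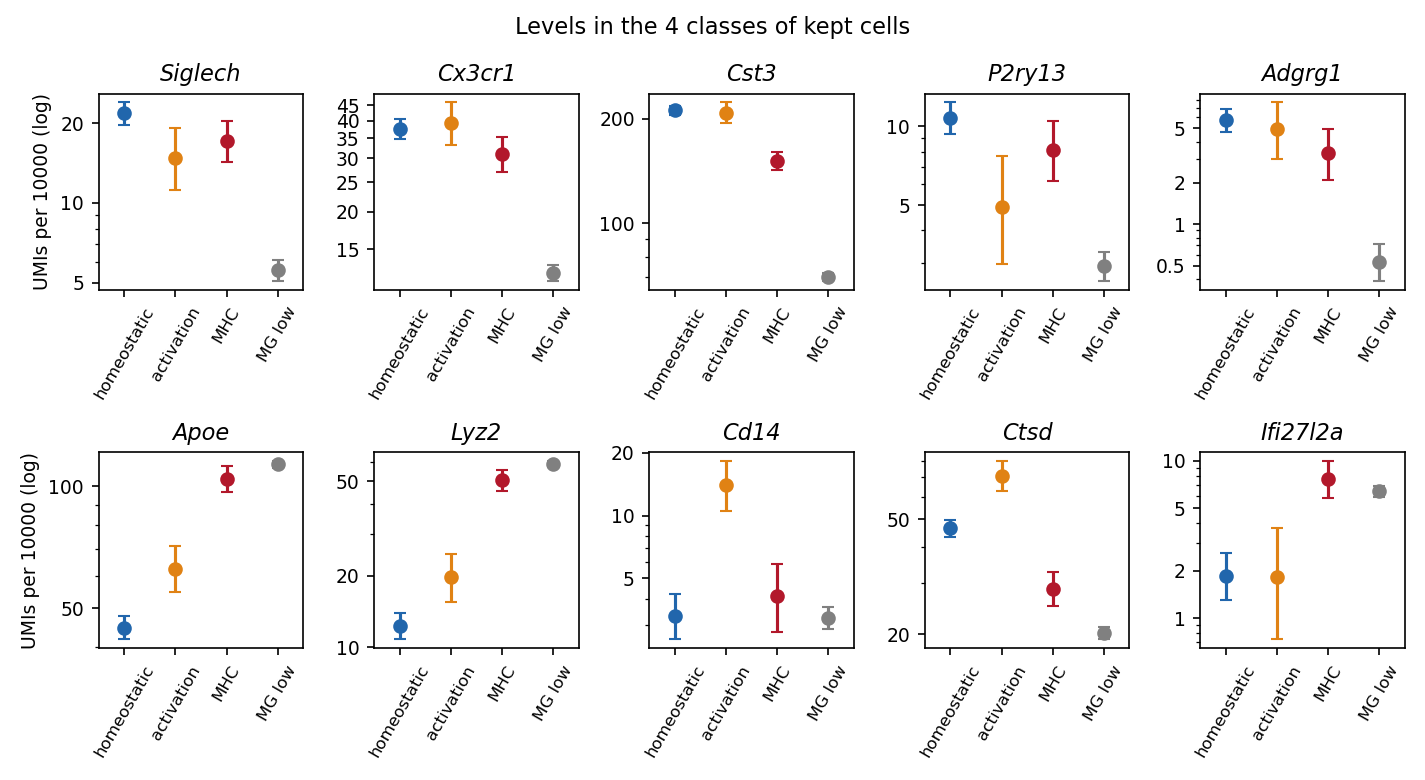
Level in UMIs per 10000 (log y axes) of 10 genes in 173 homeostatic microglia, 20 activated cells, 46 MHC-high cells and 586 cells with a microglia sum under 80, pooled over libraries; bars are exact Poisson 95% intervals and cover counting error only. Cx3cr1, Cst3 and Adgrg1 have overlapping intervals in homeostatic and activated cells, Cd14 is highest in activated cells, and Apoe, Lyz2 and Ifi27l2a are higher in MHC-high cells than in homeostatic ones.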

How the data were processed

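The authors deposited tables of UMI counts per gene and well for 5 libraries, each a plate of 384 wells of which 4 held no cell. The submitters' processing notes list mm10 as genome build and bcl2fastq 2.15.0.4 as a tool. An aligner was not given in the sources used here. Counts were used as deposited. The labels give brain and aPDL1 for every library, while their extract protocol describes thymus and small intestine and the study's text also names a control antibody, so tissue and treatment rest on the sample labels. Well barcodes are shared by all libraries because each plate uses the same 384. Cells were sorted singly and no doublet caller was run. The members and gene lists were chosen with earlier results of these data known.

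Of 1920 wells, 1900 held 1 cell, and 825 of these had at least 500 UMIs outside the ERCC spike-in rows. Libraries 1 to 5 held 134201, 146078, 438601, 128201 and 549824 UMIs, and members 16463, 6593, 71644, 14571 and 84122 of them. The 20 empty wells gave 320 UMIs. Levels are UMIs per 10000. Counts were summed per library and class, a sum over under 5 cells was dropped with its partner, and genes with at least 30 UMIs were tested by quasi-likelihood in edgeR 4.0.16 (R 4.3.3, robust fit, TMM factors), with Benjamini-Hochberg adjustment over all genes tested. The 30 UMIs were counted over both classes together. A gene with no UMI in 1 class, such as Clec10a, Mir1668, Entpd1 or Retreg1, thus passed through the other class alone. The 15 genes of the rule were left out. The library was a block, since a plate supplied both its sums. SE is the log2 fold change divided by the square root of F. DESeq2 1.42.0 and the settings given in the closing section were alternatives. Metrics per cell were compared by an exact sign-flip permutation test over libraries, in Python 3.11.15 with numpy 2.4.6 and scipy 1.17.1. UMIs per ERCC UMI, planned as a measure of RNA content, was not computed because the tables hold 3 ERCC UMIs. Scripts were tested on simulated data.

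Genes named were the 15 of the rule, the 10 largest rises and falls per comparison among called genes that moved the same way in every library, up to 4 genes with the most UMIs of each list, Ptprc and Itgam, and the 10 with the largest variance among members. A few genes that this rule or a list holds are not reported here. Other called genes, genes called only by DESeq2 or median-ratio factors, and genes set beside a marker count are named outside this rule, after their values were seen.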

Additional observations from a re-analysis of the deposited data

Results flagged for a closer look

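Of 170 library-level values tested for a sample far from the others of its group of 5, 22 were flagged by Dixon's test, which chance does for about 5% of groups. Library 2, with 9 members and 6593 UMIs, stood above the other libraries for 10 genes in members: Tmem119 at 44.0 UMIs per 10000, Glul at 27.3, Itgam at 18.2, Ldhb at 16.7, Lyn at 12.1, Arhgap5 at 10.6, P2rx7 at 6.07, Ccr2, Cd209a and Lsp1 at 3.03 each. Olfm1 at 1.52 was also found in members of that library alone. In library 4 Cd74 (3.43) and Rps9 (5.49) were lowest, and Spp1 (0.686), Plac8 (0.686) and S100a6 (2.75) were highest. In library 3 Top2a (2.09), Gm13226 (1.12), Napsa (0.140) and Alcam (0.140) were highest and Gm15772 (1.67) was lowest. In library 1 Lyz1 was highest, at 0.607. Tmem119, Cd74 and Spp1 belong to the rule. The levels of Olfm1, Spp1, Plac8, Napsa, Alcam, Lyz1, Ccr2, Cd209a and Lsp1 stand for very few UMIs. Spp1, for example, had 3 UMIs in all members. For such counts the stated chance rate need not hold. The part of the small member count of library 2 in these values was not tested.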

How the results depend on the processing

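Between members and all other cells, 16 genes were higher and 67 lower. The higher count was 68 by DESeq2, 52 with median-ratio factors, 4 with no filter on low counts, 55 with cells of at least 300 UMIs, 119 with at least 1000, 8 with a microglia sum of at least 120, 29 with the rule applied to 500 thinned UMIs, 27 against cells under the microglia limit and 5 without wells rich in S100a8 and S100a9 in both classes. The lower count was 106 by DESeq2, 152 with genes of at least 10 UMIs, 101 with no filter, 207 at 300 UMIs, 177 at 1000, 143 on thinned UMIs and 108 against cells under the limit. At 1000 UMIs only libraries 3 and 5 had 5 or more cells in both classes, so those counts rest on 2 libraries. The comparison with MHC-high cells at that depth rests on the same 2. Leaving out each library in turn gave 0 to 37 higher and 12 to 87 lower. The causes were not tested. All 16 higher genes kept their direction in every alternative in which they were tested. Against activated cells both counts fell from 1 to 0 by DESeq2, with no filter and at 300 UMIs. Against MHC-high cells the higher count was 0 by DESeq2, with genes of at least 10 UMIs, with no filter, at 300 and 1000 UMIs and with a microglia sum of at least 120, and 2 on thinned UMIs. The lower count was 0 with at least 10 UMIs, no filter or 300 UMIs, 2 with median-ratio factors or a microglia sum of at least 120 and 4 on thinned UMIs. Lyz2 was not among the 2 lower genes at a microglia sum of at least 120, nor Retreg1 among the 2 higher on thinned UMIs. Without each library the higher and lower counts ranged from 0 to 1 and from 0 to 3. Without the replicate block 22 genes were higher and 63 lower than in all other cells, and 2 higher and 1 lower than in MHC-high cells. The fold changes of S100a8, S100a9, Ngp, Camp and Lcn2 turned to 1.13, 1.06, 1.15, 1.5 and 0.69 without S100a8 and S100a9 wells among the other cells, and that of Camp to 0.19 without them in both classes. The difference in genes per cell at 500 thinned UMIs ranged from -3.38 to 3.38 without each library, and that in UMIs per cell was -547.8 against other cells above the microglia limit. Of 1518 values of called genes under the alternatives, 1202 kept direction and call, 310 lost the call and 6 turned. The comparison with activated cells could not be fitted with a microglia sum of at least 120, on thinned UMIs or without library 3 or 5. Depth limits genes under about 30 UMIs, and library 2 has 9 members.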

Other observations

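Genes outside the pathway lists were also lower in members. Fxyd5, a regulator of the sodium pump, had a log2 fold change of -3.03 ± 0.61 SE (edgeR adjusted p = 0.000522), with 12 UMIs in members and 516 in the other cells. Cybb, the catalytic subunit of the phagocyte NADPH oxidase, had -1.88 ± 0.51 (edgeR adjusted p = 0.0211), with 47 and 843 UMIs. Cd209a, a lectin of monocyte-derived dendritic cells, had -3.07 ± 0.69 (edgeR adjusted p = 0.00276), with 9 and 338 UMIs. All 3 were lower in members of 5 of 5 libraries. Eef1a1, the elongation factor that brings tRNA to the ribosome, had -1.12 ± 0.32 (edgeR adjusted p = 0.0353) and was lower in 5 of 5 libraries as well.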
